A study of Mus musculus with 3 samples.

Results

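Strong 3′ UTR positions are single bases of mRNA 3′ untranslated regions (3′ UTRs) with a high count of crosslinks in the deposited list of an immunoprecipitation study of the RNA-binding protein ZFP36L1. They were chosen by the measured count itself, as positions of protein-coding genes that the authors labelled 3′ UTR and that carry a count of 5 or more. This gave 1382 of 43898 3′ UTR positions (3.15%) and of 462392 positions listed in all. They lay in 421 of the 5752 genes with any listed 3′ UTR position (7.32%). Because the count chose the members, counts, sums and sharpness are given as descriptions, with no test.

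The study used individual-nucleotide resolution crosslinking and immunoprecipitation (iCLIP), in which ultraviolet light joins a protein to the RNA it touches and the end of the cDNA marks the contact. Total naive thymocytes, the developing T cells of the thymus, came from mice of the strain C57BL/6JBabr. The genotypes labelled are WT with 2 libraries from independent experiments and DCKO, the double conditional knockout of Zfp36l1 and Zfp36l2, with 1 library. All cells received 300 mJ/cm2 of ultraviolet light, complexes were pulled down with an antibody named Brf1/2, and reads were 100 nt long from single ends. Whether the antibody also pulled down ZFP36L2 was not tested, and the list does not name the libraries that entered it. Counts are therefore not assigned to ZFP36L1 alone. The sources used here do not give the line that drives the conditional deletion, the age of the mice or the share of deleted cells. Each position carries a single value that is not split by library, so WT and DCKO could not be compared, no value has a replicate error, and the depth of each library is unknown. All listed counts sum to 814493.

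ZFP36L1 belongs to the ZFP36 family of zinc finger proteins, which bind AU-rich elements in 3′ UTRs and recruit the deadenylation machinery, so that the bound mRNA is shortened and degraded. The preferred element holds the core UAUUUA, written TATTTA in DNA letters, often in overlapping copies of AUUUA. In developing thymocytes ZFP36L1 and ZFP36L2 are known to restrain the cell cycle and to allow orderly passage through the stages at which antigen receptor genes are rearranged.

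The strongest positions of genes with high counts, and of Elavl1 and Zfp36, fell into windows of different sequence. Examples were picked to make these differences visible. The windows of Zfp36l1 and Zfp36l2, not printed, hold no whole TATTTA. Each window is 29 nt of the sense (mRNA) strand from GRCm38, 5′ to 3′, and the listed position is base 15. Capitals mark TATTTA or ATTTA where the window holds either. These windows lie in 3′ UTRs, for Rag1 at chr2:101640488-101640516 (minus strand), Bcl11b at chr12:107915146-107915174 (minus strand), Satb1 at chr17:51739206-51739234 (minus strand), Cd4 at chr6:124866016-124866044 (minus strand), Hif1a at chr12:73946010-73946038 (plus strand), Elavl1 at chr8:4285775-4285803 (minus strand) and Zfp36 at chr7:28376945-28376973 (minus strand).
Rag1: aatgaacatgtgtacattgttTATTTAta
Bcl11b: ttttaactgtgcaataatttctgTATTTA
Satb1: cacaATTTAgtccttgtTATTTAtttgta
Cd4: catcagctTATTTAttcttcgctgctgcc
Hif1a: ccttttTATTTATTTAtttttggtgaggg
Elavl1: ttTATTTATTTATTTAttttTATTTAttt
Zfp36: gacttTATTTAttgtattaagattttata

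A further set had a run of thymidines, or none of these elements, at the strongest position. Capitals mark runs of 5 or more thymidines. The windows are Actb at chr5:142903652-142903680 (minus strand), Cd3e at chr9:44999138-44999166 (minus strand), Cxcr4 at chr1:128588695-128588723 (minus strand), Stk4 at chr2:164152188-164152216 (plus strand) and Notch1 at chr2:26459185-26459213 (minus strand). In Cxcr4 the thymidine run lies outside the printed bases but within 20 nt of the position. The strongest Notch1 position has no TATTTA within 20 nt, although 16 of the 18 strong positions of the gene do.
Actb: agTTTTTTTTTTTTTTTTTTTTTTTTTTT
Cd3e: tcTTTTTctttcTTTTTaggttttctttc
Cxcr4: gactgttgggagtttatgttcctctagtt
Stk4: atatatatatataaattataaatagattc
Notch1: tatgaacaaggattcatgatttgtaaatg

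Sharp positions, at which most counts within 15 nt fell on 1 base, form the last set. Here capitals mark the listed position and the base after it. The windows printed have CA or TA there, but not all sharp positions do. Sfrs18, which was sharper than Macf1 and Suco, had TC, and Cmas had TT. The windows are Kbtbd2 at chr6:56777544-56777572 (minus strand), Lat at chr7:126363974-126364002 (minus strand), Mat2a at chr6:72433161-72433189 (minus strand), Tmem194 at chr10:127696993-127697021 (plus strand), Macf1 at chr4:123350825-123350853 (minus strand) and Suco at chr1:161817205-161817233 (minus strand).
Kbtbd2: tgtattttgaatgaCAttaatttattaaa
Lat: cgctaagaggatccCAtttgacctctgcc
Mat2a: gggtatggcgtaagTAcagagaagccatc
Tmem194: tgaccccagatattTAttacctgtgaaac
Macf1: aatcctgctccataCAttgggtgtatatt
Suco: gagagagaattgacCAttttgtgttgtaa

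Counts among the strong positions ranged from 5 to 110 with a median of 6. In sum they held 12540 of the 84833 counts at 3′ UTR positions (14.8%). A count of 10 or more stood at 318 positions in 92 genes. Just outside the threshold, 1537 positions had a count of 4, with a median sharpness of 0.25 and TATTTA within 20 nt of 34.3% (95% Wilson interval 32.0 to 36.7). Just inside it, 337 positions had a count of 5, with a median sharpness of 0.172 and TATTTA near 35.3% (30.4 to 40.55). Counts of 6 and 8 were more frequent, at 380 and 147 positions, than the odd counts just below them, 5 and 7, at 337 and 134 positions. Counts of 10 and 12 were less frequent, at 57 and 32 positions, than 9 and 11, at 66 and 43, and 50.8% of strong positions had an even count (48.2 to 53.4). Below the threshold, a count of 2 stood at 22502 positions and a count of 1 at 17145. Wilson intervals here and below cover counting error only and count neighbouring bases as separate, although they share a gene and its reads.

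A few genes held much of the strong signal. Rag1, Actb, Bcl11b and Satb1 together had 302 strong positions (21.85%) and 35.4% of the strong counts, and the 10 highest genes had 44.1%. Without these 4 genes, the 10 highest of the others had 19.4% of the remaining counts. At the other end, 222 genes had 1 strong position, 135 had 2 to 4, 43 had 5 to 9 and 21 had 10 or more. The median sum over the 421 genes was 10 counts. In the median gene, 23.5% of all its 3′ UTR counts stood at strong positions, with a range from 3.57% to 100%. Counts were not adjusted for the abundance of each mRNA, so the order of genes is an order of signal and not of binding per molecule.

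**Figure D1:**
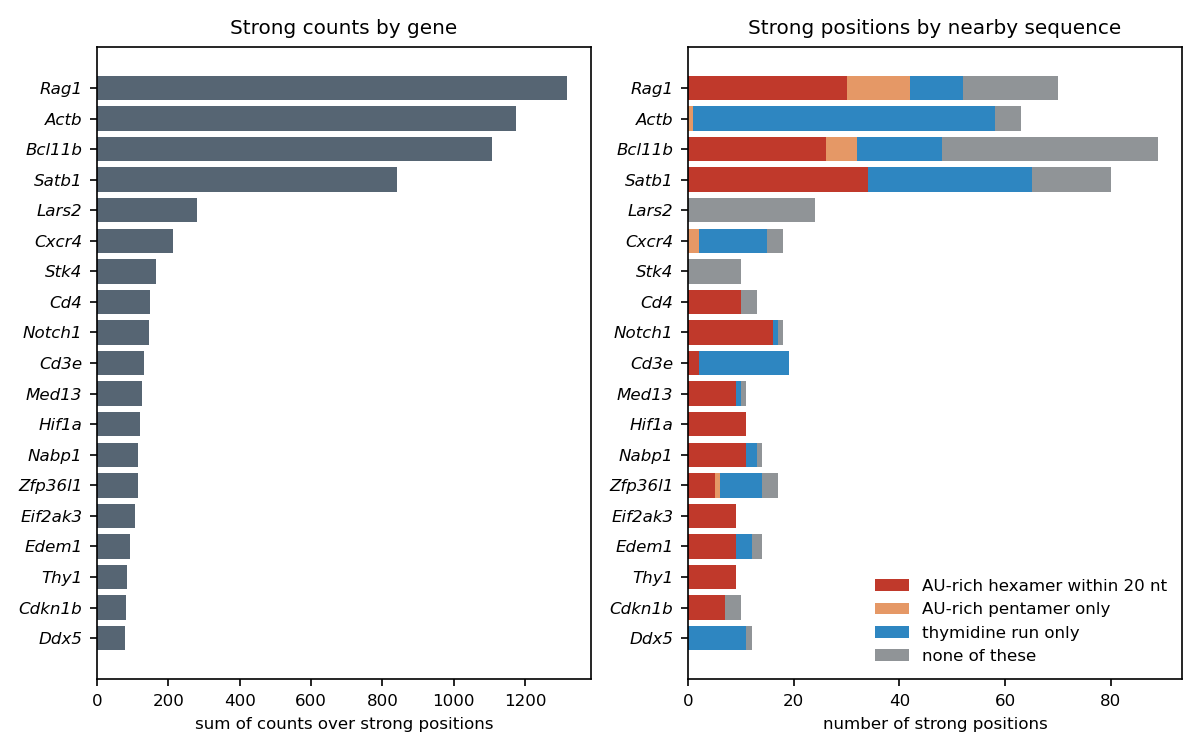
19 of the 20 genes that rank highest by strong counts. The left panel plots that sum and the right panel the number of strong positions, split by the sequence within 20 nt: TATTTA (AU-rich hexamer), ATTTA without it (pentamer only), a run of 5 or more thymidines without either, or none of these. Rag1 leads with 1319 counts, and Actb has 57 of its 63 positions at thymidine runs only.

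Rag1, which encodes the catalytic subunit of the recombinase that cuts antigen receptor genes, had 70 strong positions and a summed count of 1319, 65.6% of its 3′ UTR counts. The highest count of all strong positions, 110, was at position 101640502 of chromosome 2, 1171 nt after the stop codon in a 3′ UTR of 3391 nt. It belonged to a block of 34 strong positions within 42 nt, in which 1082 counts were summed and 80.95% of the bases were themselves strong. Of these 34 positions, 30 lay within 20 nt of TATTTA. The peak held 10.2% of the block's counts, and other bases of the block had counts of 68, 65, 61 and 59. The other 19 Rag1 clusters were small, with at most 48 counts each and no TATTTA within 20 nt of any of their strong positions. They were spread from 294 to 3215 nt after the stop codon.

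Bcl11b, a transcription factor needed for commitment to the T lineage, had the most strong positions, 89, with a summed count of 1108. They formed 19 clusters, the larger of which lay near both ends of a 3′ UTR of 4997 nt. The strongest position, with 63 counts, lay 240 nt after the stop codon in a cluster of 18 positions and 288 counts, 16 of them near TATTTA. A larger cluster of 30 positions and 474 counts began 421 nt after the stop codon, and 0 of its positions had TATTTA within 20 nt. Near the far end, between 4636 and 4843 nt, 5 clusters of 2 to 6 positions summed to 24 to 60 counts each. One sharp position of this gene, 3750 nt after the stop codon with 5 counts, had a sharpness of 0.714.

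Satb1, a chromatin organiser of thymocytes, had 80 strong positions with 841 counts, all between 418 and 1127 nt of a 3′ UTR of 3711 nt. Its main cluster was the widest of all clusters, with 41 positions over 80 nt and 435 counts, of which 18 positions lay near TATTTA. The peak of that cluster, with 32 counts, did not. A neighbouring cluster of 16 positions within 18 nt held 226 counts, and all 16 were near TATTTA. Another block of 11 positions within 13 nt and 77 counts had 0 positions near TATTTA and lay at a thymidine run.

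Actb, which encodes cytoplasmic actin, had 63 strong positions with 1176 counts, 88.7% of its 3′ UTR counts. No position was near TATTTA, 57 were near a thymidine run and 54 were thymidines. A block of 29 positions within 31 nt, centred on the run printed above, held 718 counts, and its highest count, 45, was 6.27% of them. Another block, further on, of 20 positions within 23 nt held 348 counts. At 10 of the 63 positions the 31 nt that follow were found more than 1 time in the genome, up to 91 times, and the part of this in the counts was not tested.

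**Figure D2:**
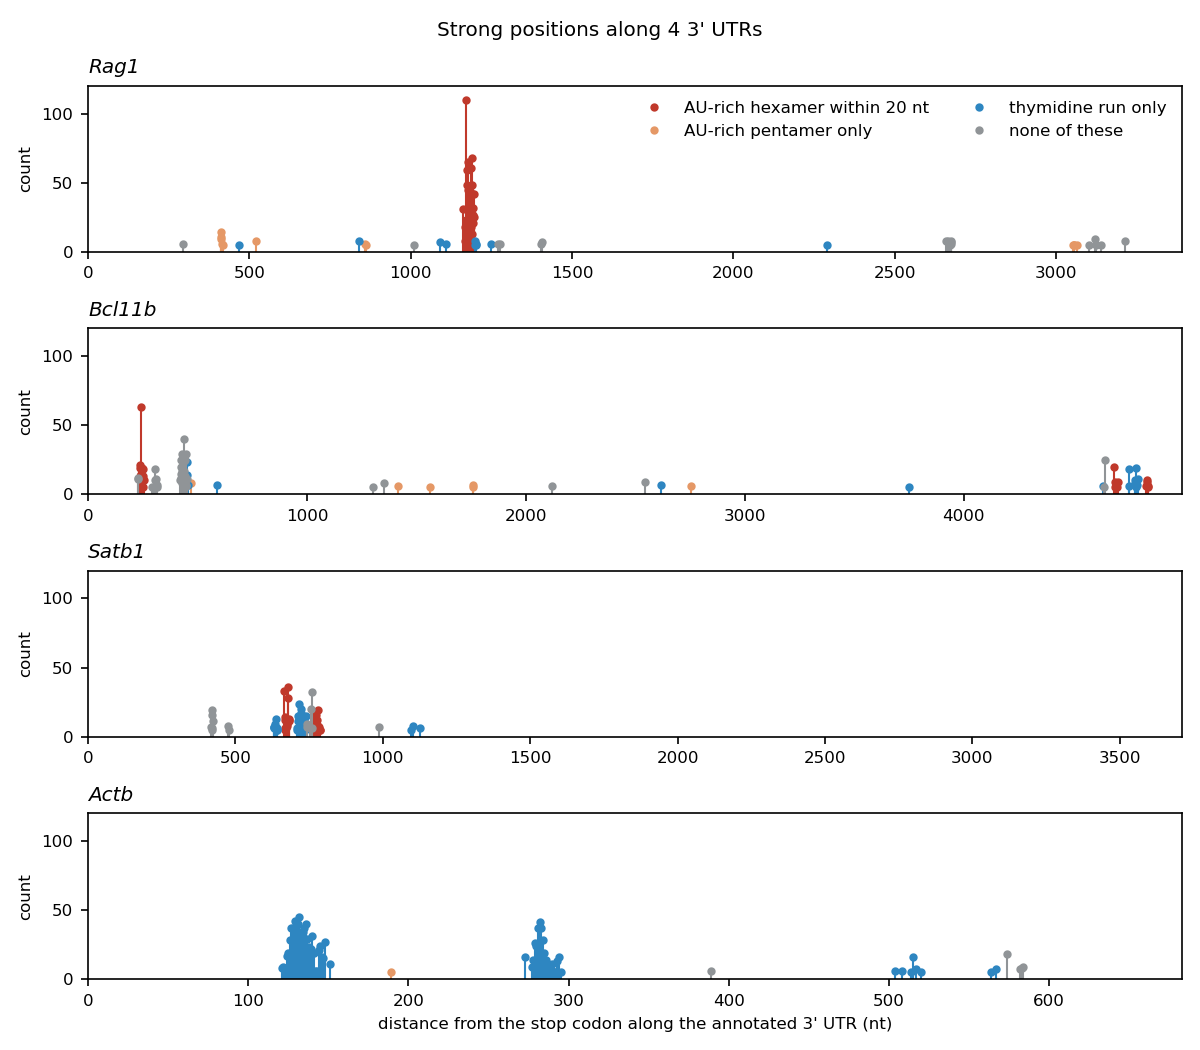
Count at each strong position against its distance from the stop codon along the annotated 3′ UTR, for Rag1, Bcl11b, Satb1 and Actb, coloured by the sequence within 20 nt as in the plot of genes. The tallest Rag1 positions stand in 1 block near 1171 nt, the higher Bcl11b counts stand near both ends, and the 2 Actb blocks hold 49 of its 63 positions.

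Lars2, a mitochondrial leucyl-tRNA synthetase gene, ranked next with 24 strong positions and 281 counts, all within 205 nt. Of the 24 positions, 13 had 31 nt downstream found more than once in the genome, up to 8 times. Copies were searched on the assembled chromosomes and the mitochondrial genome only, so copies elsewhere would be missed for any of the 24. Likeness to ribosomal RNA was not tested, as no full reference sequence was at hand. The origin of all 24 positions in Lars2 mRNA was not tested. Without Lars2, the share of strong positions near TATTTA was 44.3% in place of 43.6%.

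Surface receptors and signalling genes of thymocytes followed. Cxcr4, a chemokine receptor that guides early thymocytes, had 18 strong positions with 212 counts, and its peak of 75 counts was the highest count outside Rag1. That peak had a sharpness of 0.463 and held 35.4% of the gene's strong counts. Cd4, the coreceptor for class II, had 1 cluster of 13 positions within 28 nt (147 counts), 10 of them near TATTTA. Cd3e, a chain of the T cell receptor complex, had 19 positions (131 counts), of which 17 were near a thymidine run only. Thy1, a surface glycoprotein of thymocytes, had 9 positions (84 counts), all near TATTTA. Notch1, the receptor that instructs the T lineage, had 18 positions (145 counts) in 3 clusters between 138 and 352 nt after the stop codon. Stk4, a kinase of the Hippo pathway, had 10 positions within 12 nt (164 counts), with none of the searched elements nearby.

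Several regulators had all their strong positions near TATTTA, and 3 of those named here had them in 1 compact cluster. Hif1a, the oxygen-regulated transcription factor, had 11 within 15 nt (119 counts). Eif2ak3, the kinase PERK of the unfolded protein response, had 9 within 13 nt (106 counts), 83.5% of its 3′ UTR counts. Bcl2l1, which encodes the survival factor BCL-XL, had 5 within 12 nt (76 counts). Top2a, a DNA topoisomerase, also had all 6 near TATTTA, but in 2 clusters (42 counts). By contrast Med13, a Mediator subunit, Nabp1, a single-stranded DNA binding protein, Cdkn1b, an inhibitor of cyclin-dependent kinases, and Edem1, a factor of protein disposal in the endoplasmic reticulum, had 3 or 4 clusters each. Their positions near TATTTA numbered 9 of 11, 11 of 14, 7 of 10 and 9 of 14. The strongest Ddx5 position, in an RNA helicase gene with 12 positions and 77 counts, lay outside the GENCODE 3′ UTRs, which differs from the authors' label.

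Messenger RNAs of the ZFP36 family were among the genes. Zfp36l1 had 17 strong positions with 114 counts in 4 clusters, the highest count being 10, and 5 positions were near TATTTA. Zfp36l2 had 6 positions with 63 counts, of which 24 stood at 1 position, and 5 were near TATTTA. Zfp36 had 7 positions with 42 counts and no count above 8, and 5 were near TATTTA. Elavl1, which encodes the AU-rich element binding protein HuR, had 6 positions within 36 nt (48 counts), all near overlapping copies of TATTTA, as its window shows. At 4 of these 6 the 31 nt downstream were repeated in the genome, up to 99 times. The strong positions of Zfp36l1 lay late in a 3′ UTR of 1835 nt, from 1250 to 1760 nt after the stop codon.

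The members were less confined to 1 base than their working name, single-nucleotide positions, says. Sharpness is the count at a position divided by the sum of counts within 15 nt on either side, as deposited, so 1 means that all counts fell on that base. Its median was 0.172 (quartiles 0.0885 and 0.333), and only 199 strong positions (14.4%, interval 12.65 to 16.35) had 0.5 or more. Sharpness was under 0.1 at 395 positions (28.6%), and 31 (2.24%) had no other count within 15 nt. The median strong position had 35.5 other counts within 15 nt. They are therefore called strong positions here.

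**Figure D3:**
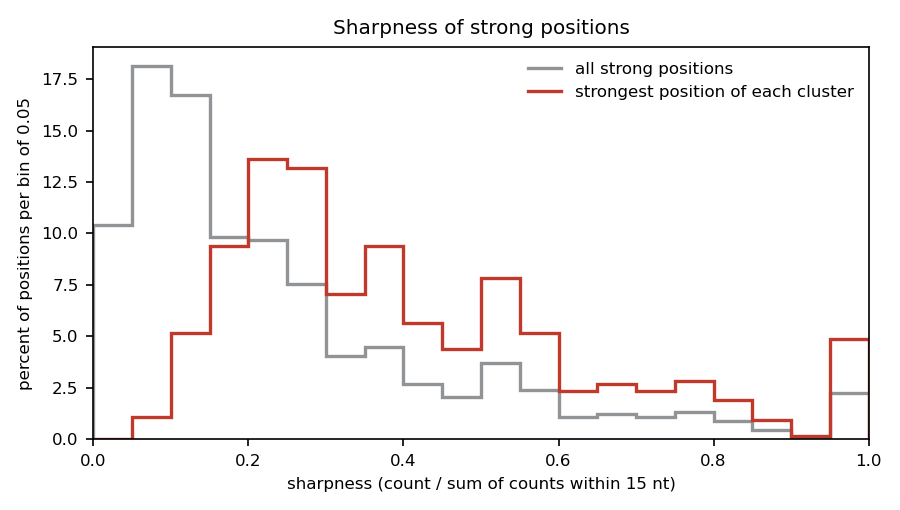
Distribution of sharpness (count divided by the sum of counts within 15 nt) in bins of 0.05, as percent of positions, for all 1382 strong positions and for the strongest position of each of 638 clusters. Over all positions the highest bar is 18.16% at 0.05 to 0.1, and the strongest position of each cluster reaches 0.5 in 31.03% of clusters.

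Taking only the strongest position of each cluster, the median sharpness was 0.353 and 198 of 638 (31.03%) had 0.5 or more. The sharpest positions with a count of at least 10 were those of Kbtbd2, a ubiquitin ligase adaptor, with all 14 counts on 1 base, and Lat, the adaptor downstream of the T cell receptor, with all 11. Mat2a, a synthetase of S-adenosylmethionine, had 13 of 14 counts on its base. Tmem194, now called Nemp1, a nuclear envelope protein, had 14 of 16. Sfrs18, now Pnisr, had 11 of 14. Macf1, which links actin and microtubules, and Suco each had 14 of 18, and Cdk17, a kinase, had 12 of 17. The 31 nt after the Cdk17 position occur 12 times in the genome. Further down were Arid1a, a subunit of the BAF remodelling complex, with 12 of 19, and Cflar, the caspase-8 inhibitor, with 10 of 16. The 31 nt after the Arid1a position occur 2 times in the genome. Among positions with a count of at least 10, the 10 least sharp lay in Rag1, Bcl11b and Actb, down to 0.0151 at a Rag1 base with 13 of 860 counts. Positions with lower counts in these genes were less sharp still, such as an Actb base with 6 counts and a sharpness of 0.0094.

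Sharp and spread clusters differed in the bases at the peak, a pattern looked for after the values were seen. Among the 198 peaks with sharpness of 0.5 or more, the listed base and the next were CA at 39.4% (interval 32.85 to 46.3). They were TA at 27.3% (21.55 to 33.9) and TT at 13.6% (9.54 to 19.1). Among the 100 peaks under 0.2 they were CA at 3.0% (1.03 to 8.45) and TT at 53.0% (43.3 to 62.5). Positions with a count of 1 to 4 and a sharpness of 0.5 or more had CA at 13.4% (13.01 to 13.8), and those under 0.2 at 2.71% (2.38 to 3.08). Of the 42516 positions with such counts, 19400 had no other count within 15 nt. A high sharpness there can mean only an isolated position, so it is not directly comparable with that of strong peaks. TATTTA lay within 20 nt of 27.3% of sharp and 43.0% (33.7 to 52.8) of spread peaks, and TTTTTT of 10.6% and 54.0%. The 340 peaks between had TATTTA at 45.6% (40.4 to 50.9) and TTTTTT at 19.1%. Soft-masked sequence, a mark of repeats, held 33.3% of sharp and 79.0% of spread peaks. Sharp strong positions in introns had CA at 17.96% (15.3 to 20.9) and spread ones at 2.42% (1.75 to 3.35), so the contrast between sharp and spread positions was not particular to strong 3′ UTR peaks. Unlike the peaks, the intron positions and those with a count of 1 to 4 were not reduced to 1 per cluster, so neighbouring bases are counted separately. These bases rest on the numbering of the list from 0, which 12 positions at segment edges fit, against 5 for numbering from 1. Sharpness contains the count that chose the members, and sequence composition could not be separated from it.

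Strong positions lay close together. Another strong position of the same gene was the next base for 535 (38.7%, interval 36.2 to 41.3) and within 15 nt for 965 (69.8%, 67.35 to 72.2). It lay 16 to 100 nt away for 94, over 100 nt away for 101, and 222 had none in their gene. Joining positions at most 15 nt apart gave 638 clusters, of which 417 (65.4%) held 1 position, 165 held 2 to 4, 38 held 5 to 9 and 18 held 10 or more. Those 18 lay in 14 genes and held 38.95% of the strong counts. Clusters of 2 or more positions had a median width of 9 nt and at most 80 nt.

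**Figure D4:**
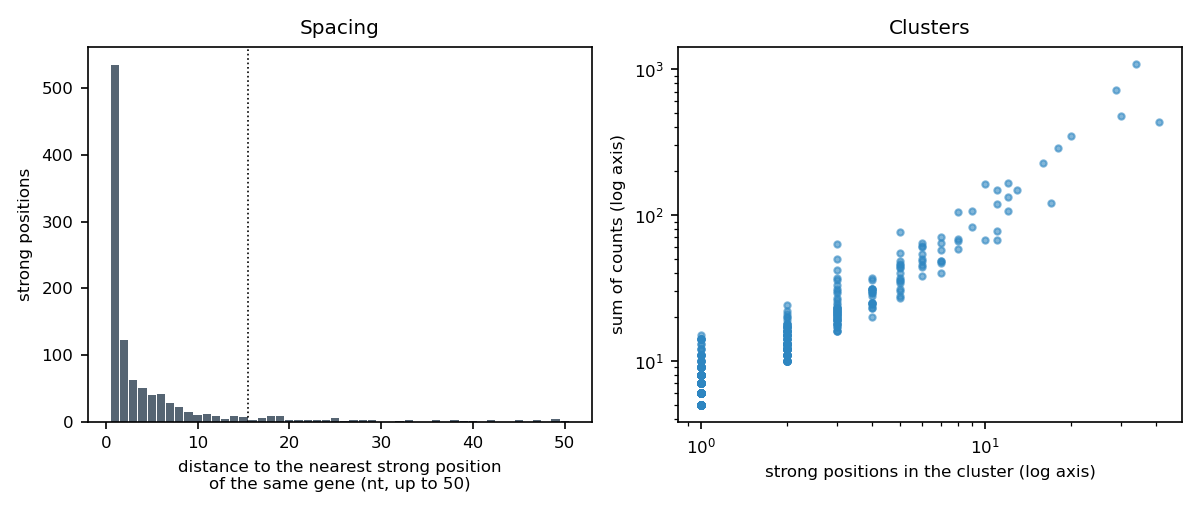
The left panel counts strong positions by the distance to the nearest strong position of the same gene, up to 50 nt, with the dotted line after 15 nt. The right panel plots the summed count of each of 638 clusters against its number of strong positions, both on log axes; 535 positions have a neighbour at 1 nt and the largest sum is 1082 counts in Rag1.

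The sequence at the peak varied with the size of the cluster. The peak was near TATTTA in 34.3% of clusters with 1 strong position (29.9 to 39.0), in 48.5% of those with 2 to 4 (41.0 to 56.1) and in 57.9% of those with 5 to 9 (42.2 to 72.15), and the last 2 intervals overlap. In the 18 clusters of 10 or more it was near TATTTA in 7 and near a thymidine run without ATTTA in 7. None of the 3 elements stood near 33.8% of peaks of single-position clusters and 17.0% (12.01 to 23.4) of peaks of clusters with 2 to 4. Median peak sharpness was 0.455, 0.235, 0.1825 and 0.141 in the same order. Within a gene, clusters were 109 nt apart at the median (217 gaps between peaks, quartiles 41 and 453 nt). Of 421 genes, 304 had 1 cluster, 117 had more, and 17 had 4 or more, with Rag1 (20), Bcl11b (19) and Satb1 (8) at the top.

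AU-rich elements were searched on the sense strand in the 41 nt around each position. The hexamer TATTTA, which contains the pentamer ATTTA, was found near 602 strong positions (43.6%, interval 41.0 to 46.2) and near 14.5% of positions with a count of 1 to 4 (14.2 to 14.9). In the same 421 genes, a comparison added after the values were seen, positions with a count of 1 to 4 had it at 18.3% (17.6 to 19.0). Where they lay over 50 nt from any strong position the share was 7.38% (6.81 to 7.99), and within 50 nt it was 33.04% (31.8 to 34.3). With 1 position per cluster the strong share was 39.5% (35.8 to 43.3), and with the strongest position of each gene 45.6% (40.9 to 50.4). ATTTA stood near 50.7% of strong positions and 20.7% of the weaker ones. TTATTTATT, the full nonamer, stood near 14.3% and 3.19%.

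Other elements differed by smaller ratios. TTTTTT was near 29.6% of strong positions (27.25 to 32.1) and 19.5% of weaker ones, TGTANATA, the Pumilio element, near 2.61% and 2.11%, and TGTGTG near 7.38% and 6.01%. AATAAA, the polyadenylation signal, was near 1.16% and 2.72%. The position itself was a thymidine at 66.3% of strong positions (63.75 to 68.7) and 57.5% of weaker ones. Of the 421 genes, 222 had a strong position near TATTTA, 153 had only such positions, and 158 had none near ATTTA.

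**Figure D5:**
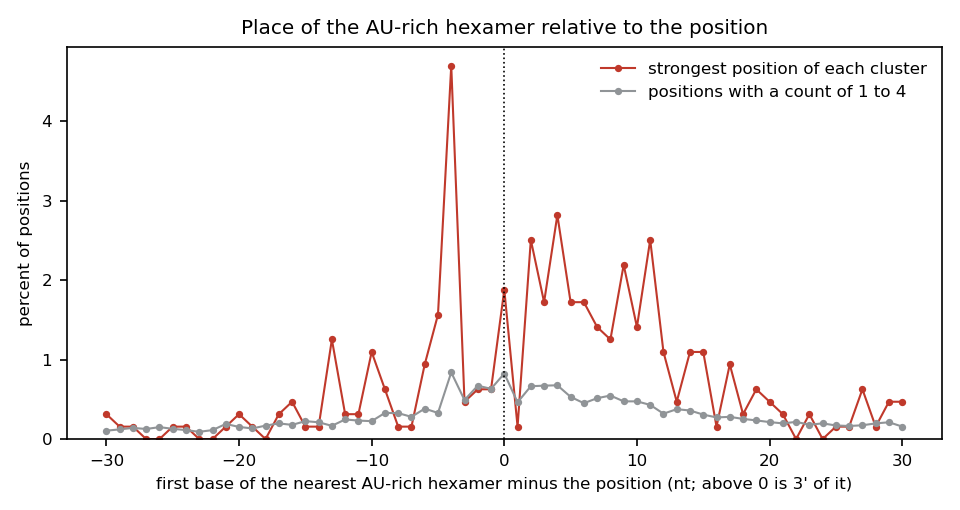
Distance from each position to the first base of the TATTTA (AU-rich hexamer) whose centre is nearest, as percent of positions, for the strongest position of each of 638 clusters and for positions with a count of 1 to 4. Values above 0 lie 3′ of the position; the highest point, 30 of 638 clusters, is at -4, and the strong curve stays higher from 2 to 12.

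Among the cluster peaks with TATTTA within 20 nt, the element lay wholly 3′ of the position in 148, over it in 63 and wholly 5′ in 41. The wholly 3′ and wholly 5′ windows are equally wide, 15 start positions each. The window over the position is narrower, with starts from -5 to 0, so its number is not directly comparable with theirs. At positions with a count of 1 to 4 the same numbers were 3091, 1612 and 1472. The most frequent start was 4 nt before the position, at 30 peaks, so that the listed base was the fifth of the element. In Rag1 the strongest position stood 7 nt before its TATTTA, and in Bcl11b 9 nt before.

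Strong 3′ UTR positions resembled strong intron positions in some measures only. The 2852 intron positions with a count of 5 or more had TATTTA near 48.35% (46.5 to 50.2) and a median sharpness of 0.194. TTATTTATT stood near 40.2% of them, against 14.3% in 3′ UTRs. Soft-masked sequence, which marks repeats, held 78.4% of intron and 56.7% of 3′ UTR positions. The 31 nt downstream occurred once in the genome for 67.4% (65.7 to 69.1) of the intron and 94.7% (93.4 to 95.8) of the 3′ UTR positions. In GENCODE, 1361 of the 1382 strong positions lay in a 3′ UTR, and 97.25% in one of the named gene.

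Along the annotated 3′ UTR, cut into 3 equal parts, the part next to the stop codon held 44.8% of strong positions (42.2 to 47.5) and 36.8% of weaker ones, and the last part 27.85% and 31.9%. With 1 strong position per cluster, the part next to the stop codon held 39.5% (35.7 to 43.3) and the last part 32.6% (29.0 to 36.4). Measured on the shortest annotated 3′ UTR that holds each position, the last part held 37.6% of strong positions, above the share on the longest one. The median distance from the stop codon was 671 nt for strong positions, 761.5 nt with 1 per cluster, and 913 nt for weaker ones. The median 3′ UTR length was also lower for strong positions, 2177 against 2440 nt. Strong and weaker positions lay within 100 nt of the stop codon at 5.44% and 5.42%, and at 7.03% with 1 strong position per cluster. Within 100 nt of the annotated end lay 5.95% of strong (4.81 to 7.34) and 7.22% of weaker positions. With 1 strong position per cluster the share was 8.15% (6.25 to 10.55), above that of weaker positions, so the direction depends on how clusters are counted.

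Gene lists were counted by members with a strong position among members with any listed 3′ UTR position, beside 7.32% of all genes. The lists were drawn up with earlier results of these data known, so a share above 7.32% is no evidence of enrichment. Over all lists, 91 of the 393 genes with a 3′ UTR position had a strong one. T lineage transcription factors had one in 12 of 29, led by Bcl11b, Satb1, Cux1 (60 counts) and Ets2 (44 counts). Cux1 had 4 of 8 positions near TATTTA and Ets2 all 7. TCR complex and signalling genes had one in 11 of 31, with Nfkbia (56 counts), an inhibitor of NF-kappaB, Ptprc (39), the phosphatase CD45, and Themis (37) after Cd3e. Recombination and thymocyte stage markers had one in 6 of 22. Notch pathway genes had one in 3 of 15, Notch3 and Ncstn having 1 position each. Of the 15 thymocyte markers, 13 had a listed 3′ UTR position and 9 a strong one.

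Lists of RNA regulators were counted in the same way. AU-rich element and RNA-binding proteins had a strong position in 8 of 30, 5 of them near TATTTA. Genes of deadenylation, decay and microRNA silencing had one in 6 of 25, with Ago2 (43 counts), the microRNA effector, Btg2 (29), an antiproliferative factor that recruits deadenylases, Ddx6 (25), a decapping helicase, and Cnot8 (11), a deadenylase. Ago2, Btg2 and Cnot8 had all their positions near TATTTA, and Ddx6 had 0 of 4.

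Proliferation and stress lists followed. Cell cycle genes had a strong position in 5 of 30, with Ccnd3 (20 counts), a cyclin, and Cdkn2d (8) after Cdkn1b and Top2a. DNA damage genes had one in 3 of 20, Nabp1, Mdm2 and Lig4, the last 2 with 1 position each. Apoptosis genes had one in 4 of 20, including Bcl2l1 and the survival factor Mcl1 (23 counts), with 3 of 4 positions near TATTTA, Cflar (16) and Pdcd4 (16), with 0 of 3. Immediate early and AU-rich cytokine mRNAs had one in 4 of 24, Nfkbia, Btg2, Socs1 and Klf6. PI3K, mTOR and growth signalling genes had one in 8 of 26, led by Stk4 and Hif1a, then Pik3cd (21) and Gsk3b (20), a kinase.

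Chromatin regulators had one in 11 of 39, with Med13, the histone demethylases Kdm6b (50 counts) and Kdm6a (30), and Arid1a (24). Ubiquitin ligases and deubiquitinases had one in 3 of 24, Znrf1 (21), Znrf2 (18) and Mdm2 (8). Cytoskeleton and abundant housekeeping mRNAs had one in 8 of 28, with Ywhaz (72), Pfn1 (49) and Tubb5 (35) after Actb, and 1 gene of the 8 had a position near TATTTA. Ribosomal protein genes had one in 1 of 14, Rps9 (6 counts), and oxidative phosphorylation genes in 0 of 17. Markers of B cells had one in 0 of 2, myeloid markers in 0 of 4, erythroid markers had no listed 3′ UTR position, and thymic epithelial and stromal markers had one in 1 of 4, Col1a1 (8 counts). In all, 91 of the 421 genes belong to a list and 330 to none, so the lists describe a small part of the members.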

How the data were processed

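The data are 1 list of stranded positions. Per the file headers, the deposited score is a count of crosslinks at a position with the strand as its sign, and a further deposited score sums counts within 15 nt. Recomputed within gene and segment type, that sum equalled the deposited score at 462392 of 462392 positions. Bowtie and GRCm38 are named, per the submitters' processing notes, with no version. No source used here names the libraries that entered the list or the steps of mapping and counting. The authors' p-value and FDR were not used.

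Positions were taken as counted from 0 and are given from 1. Sequence came from GRCm38 and 3′ UTRs from GENCODE vM21. Strong positions at most 15 nt apart were joined. Code (Python 3.11.15, pandas 2.3.3, scipy 1.17.1) was tested on simulated data. Shares carry 95% Wilson intervals. No replicate test was possible. Members, the 20 gene lists and tests were chosen with earlier results of these data known. Named genes are the 20 with the highest strong sum, the strongest, sharpest and least sharp positions, the largest clusters, up to 4 members per list, and the ZFP36 family. Others were chosen after their values were seen. The results of 1 gene are not reported here. Of the gene names, 17 were updated, 8 had no match and 2 are written as dates.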

Additional observations from a re-analysis of the deposited data

Results flagged for a closer look

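Positions that the authors labelled coding were not among the members, yet 156 of the 292 coding-labelled positions with a count of 5 or more lay in a GENCODE 3′ UTR and in no coding exon, in 63 genes. TATTTA was within 20 nt of 41.7% of them (95% Wilson interval 34.2 to 49.5), beside 43.6% of the members. The highest sums were those of Trp53inp1 (16 positions, 159 counts), Sdccag3 (17 positions, 137 counts) and Ccng2 (6 positions, 94 counts), named after their values were seen. These positions stand outside the values of the report.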

How the results depend on the processing

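No value here has a test, so movement was judged against the counting interval. With a count of 4 or more there were 2919 strong positions in 866 genes and 1395 clusters. Sharpness of 0.5 or more then stood at 21.99%, a neighbour within 15 nt at 67.3%, TATTTA at 38.7%, the 10 highest genes at 32.98% of counts and the last of 3 equal parts of the 3′ UTR at 31.25%. At 6 or more, TATTTA stood at 46.2% and the 10 highest genes at 47.9%. At 10 or more there were 318 positions in 92 genes and 122 clusters, with 6.92% sharp, 74.5% with a neighbour, 50.6% near TATTTA, 69.2% thymidines, 72.15% in the 10 highest genes and 17.5% in the last part. Members of gene lists with a strong position numbered 91, and 140 and 36 at counts of 4 and 10. Without Rag1, Actb, Bcl11b and Satb1, the shares were 17.6% sharp, 63.8% with a neighbour, 47.4% near TATTTA, 19.4% in the 10 highest genes and 30.97% in the last part. With 1 position per cluster they were 31.03% sharp, 39.5% near TATTTA, 63.3% thymidines, 21.4% in the 10 highest genes and 32.6% in the last part. Counts summed within 5 nt gave 28.8% sharp and within 30 nt 9.48%, and a limit of 0.33 gave 25.7%. Neighbours within 5 and 30 nt were found for 58.7% and 73.6%. TATTTA lay within 10 nt of 27.1% and within 50 nt of 54.8%, ATTTA within 20 nt of 50.7% and TATTTAT of 35.75%. On the shortest 3′ UTR the last part held 37.6%. The other 42 values moved less than their counting error or, for numbers of positions, genes and clusters, by under 1.5 times. Among these were the 9 values for positions whose 31 nt downstream occur once in the genome, an alternative chosen after seeing the data. No paired analysis was possible because the list has no library column. The depth of each library is unknown, and a count of 5 in a pooled list says nothing about how many libraries show it.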
